A study of Homo sapiens with 6 samples.

Results

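The genes described here are 10 NF-kB and acute phase genes, SAA1, SAA2, LTB, LCN2, NFKBIA, TNFAIP3, BIRC3, CXCL1, CXCL8 and NFKB2, of which 8 are among the 10487 genes of the deposited table. They were chosen by symbol, with their differences between IGFBP2 overexpression and control cells already known, so those differences are given as a description. How many of them passed the threshold of the fit to all genes, and under other settings, is stated only as part of that description and supports nothing. SAA2 and CXCL1 are not listed in the table and were not analysed here. The cells were MDAMB468, an established line of triple negative breast cancer, and 3 libraries of control cells, labelled wild type, were compared with 3 libraries of cells labelled IGFBP2 overexpression, neither with a drug treatment. Per the study's methods, the overexpressing cells were made by lentiviral transduction with a Cas9 that no longer cuts and carries transcription-activating domains (dCas9-VHP, also spelled VPH) and then with a guide RNA to IGFBP2, selected with blasticidin and sorted for the fluorescent marker of the guide. The usual reading of VPH is VP64, p65 and HSF1, of which p65 is the activation domain of the NF-kB subunit RELA. The sources used here do not say whether the control cells carry the activator, so its effect and that of IGFBP2 cannot be told apart. Nothing in the labels says whether the replicates are separate cultures beyond the words biological replicates, so the errors below measure the spread between these libraries. Where 3 values are given for a group, they stand in the order of replicates 1, 2 and 3.

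NF-kB is a family of transcription factor dimers that inhibitor proteins hold in the cytoplasm until a receptor of the TNF, IL1 or Toll-like family is engaged. In the canonical arm, an IκB kinase removes the inhibitor IκBα, the product of NFKBIA, and RELA-containing dimers enter the nucleus. In the noncanonical arm, lymphotoxin and related ligands stabilise the kinase NIK (MAP3K14), the NFKB2 product p100 is cut to p52, and dimers of p52 with RELB form. NF-kB induces its own brakes, NFKBIA and TNFAIP3, together with chemokines, survival genes such as BIRC3, and acute phase genes such as SAA1 and LCN2. Epithelial and breast cancer cells are known to express many of these genes under inflammatory stimuli.

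The promoter letters are shown as a description of the members. No motif was searched in choosing them, but they were chosen as NF-kB and acute phase genes. A large share with an NF-kB motif may therefore follow from the choice itself. RefSeq promoters, from 250 bases before to 50 bases after each annotated start, were given for 7 of the 8 listed members and for CXCL1. Promoters of SAA1 and SAA2 were not in that set. The NF-kB consensus, a 10-base motif, was searched for exact matches on both strands. It runs G, G, G, A or G, any base, A or T, C or T, C or T, C, C. Below, each stretch is 5′ to 3′ on the gene's strand of GRCh38.p14, with 25 bases on either side of the outermost matches, and capitals mark the matches. The LTB stretch is chr6:31582477-31582536 (minus strand), with a match 86 to 77 bases before the start.
LTB: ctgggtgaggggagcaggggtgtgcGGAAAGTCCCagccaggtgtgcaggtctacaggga
The BIRC3 stretch is chr11:102317260-102317383 (plus strand), with matches beginning 199 and 135 bases before the start.
BIRC3: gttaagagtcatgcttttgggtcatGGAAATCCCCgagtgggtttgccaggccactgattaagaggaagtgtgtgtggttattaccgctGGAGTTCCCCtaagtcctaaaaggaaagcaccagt
The NFKB2 stretch is chr10:102394446-102394534 (plus strand), at the second of 3 annotated starts, where the first capital run holds 2 overlapping matches.
NFKB2: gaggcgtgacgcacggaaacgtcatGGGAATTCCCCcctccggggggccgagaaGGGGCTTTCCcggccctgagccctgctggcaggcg
The NFKBIA stretch is chr14:35404796-35404855 (minus strand), and the TNFAIP3 stretch is chr6:137867167-137867238 (plus strand).
NFKBIA: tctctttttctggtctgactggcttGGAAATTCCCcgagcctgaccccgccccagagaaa
TNFAIP3: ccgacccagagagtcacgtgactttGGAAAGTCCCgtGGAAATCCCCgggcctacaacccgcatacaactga
The LCN2 stretch is chr9:128149253-128149312 (plus strand), with the match beginning 175 bases before the start.
LCN2: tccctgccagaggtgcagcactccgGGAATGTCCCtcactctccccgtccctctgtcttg

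Thus 6 of the 7 listed members with a promoter held the NF-kB consensus, and so did CXCL1. Among all 35116 promoters 5.91% held it, and among the 8551 listed genes with a promoter 9.16% did in at least 1 promoter. In the pathway lists described below, it was held by 9 of 33 signalling components (27.3%) and 6 of 18 further NF-kB target genes (33.3%) with a promoter. It was held by 0 of 7 ligands and receptors and 0 of 9 further acute phase, complement and antimicrobial genes with a promoter. CXCL8 was the listed member without an exact match in this window. Its letters tggaatttcc, in the stretch below, miss the consensus at the first base only. The lack of an exact match thus does not show that CXCL8 lacks an NF-kB site. CXCL8 is shown with its AP-1 motif (TGANTCA, held by 7.71% of promoters) and its TATA motif (TATAAA, held by 11.5%) in capitals. Both were searched on both strands. The CXCL8 stretch is chr4:73740407-73740568 (plus strand).
CXCL8: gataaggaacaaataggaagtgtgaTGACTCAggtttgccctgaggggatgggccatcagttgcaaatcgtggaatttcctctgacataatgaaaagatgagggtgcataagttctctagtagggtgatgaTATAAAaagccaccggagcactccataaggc
LCN2 also held the AP-1 motif. NFKBIA held the TATA motif only in the reverse orientation, as TTTATA, 33 to 28 bases before the start, unlike CXCL8. A match in these letters is a description and not evidence of binding.

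**Figure D1:**
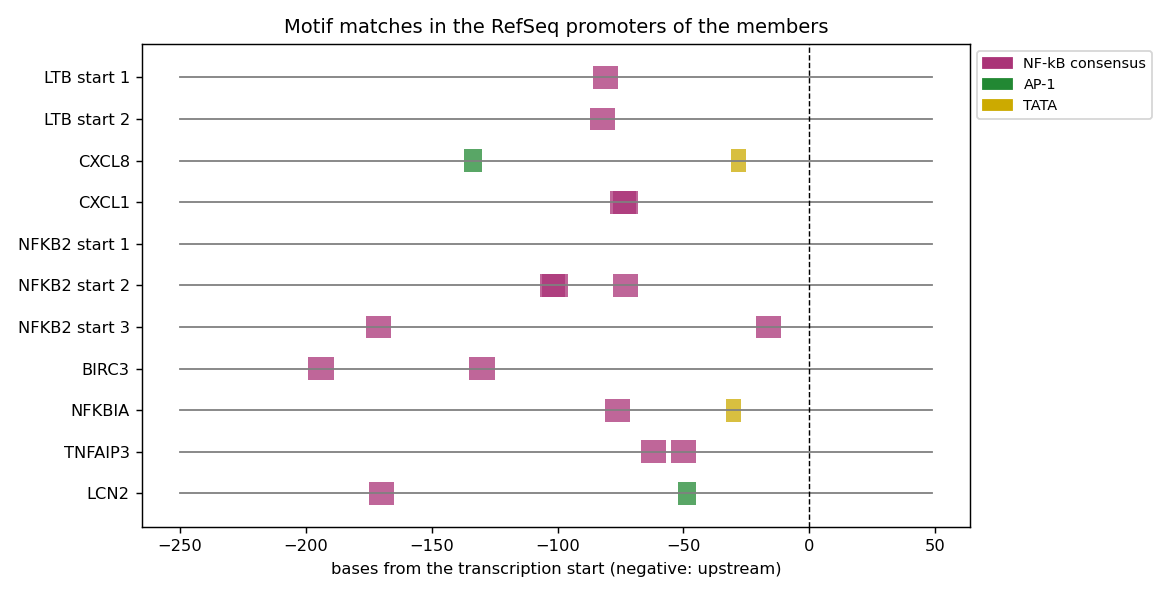
Positions of the motif matches in the RefSeq promoters of the members, with bases from the transcription start on the horizontal axis, 1 line for each annotated start and boxes for the NF-kB consensus, AP-1 and TATA motifs. The boxes do not show the orientation of a match. The NF-kB consensus lies upstream of the start in each member that holds it. CXCL8 has no exact match to it and shows only the AP-1 and TATA boxes.

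RNA was read from the 3′ end of transcripts, and the deposited unit is log2(CPM + 1), where CPM is reads scaled to a common library size. Whole reads could be recovered from the steps of the values, and the libraries held 2497353 to 4579587 reads on the listed genes. IGFBP2 itself had 93.5, 87.3 and 136 CPM in controls and 566, 1176 and 498 CPM in overexpressing libraries. The epithelial line was checked with 10 markers, all listed, whose summed level was 5650 to 7036 CPM in control and 6024 to 7201 CPM in IGFBP2 overexpression libraries. Of 9 lymphocyte, 4 endothelial and 6 hepatocyte markers none was listed. Of 6 fibroblast markers 1 was listed, COL1A1, at 12.2 to 27.5 CPM in control and 9.36 to 15.8 CPM in IGFBP2 overexpression libraries. Of 7 myeloid markers 1 was listed, CSF1R, at 0.444 to 1.67 CPM in control and 4.27 to 9.36 CPM in IGFBP2 overexpression libraries (log2 fold change 1.92). The table holds genes averaging over 5 CPM in at least 1 condition, so CSF1R was listed only through the overexpression cells and had to be higher there. The part of CSF1R in the results below was not tested. Every listed gene also had at least 1 read in every library. Genes without reads in some library are thus not listed either, and a gene that is not listed need not be low in both groups.

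Both ligands among the listed members were higher in every overexpressing library than in any control. LTB (ENSG00000227507, chromosome 6 from 31580525 to 31582522) encodes lymphotoxin beta, a part of the membrane-bound ligand that engages the lymphotoxin beta receptor. LTB had 10.4, 44.8 and 6.07 CPM in controls. It had 193, 155 and 304 CPM in overexpressing libraries. The groups did not overlap, and control replicate 2 stood well above the other controls. The mean was 20.4 ± 21.2 CPM in control and 217 ± 77.0 CPM in IGFBP2 overexpression cells (SD, n = 3 in each group). Taken on the scale of log2(CPM + 1), as are all fold changes below unless stated, the log2 fold change was 3.76 with a standard error of 0.60. It was 4.55 without control replicate 2 and 3.20 without control replicate 3. LTB is best known from lymphocytes. In bulk RNA, more cells with a transcript and more transcript per cell cannot be told apart.

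CXCL8 (ENSG00000169429, chromosome 4 from 73740519 to 73743716) encodes interleukin 8, a chemokine that attracts neutrophils. CXCL8 was near the limit of detection in control cells, with 2, 3 and 1 reads in replicates 1, 2 and 3, or 0.444, 0.834 and 0.404 CPM. The IGFBP2 overexpression replicates 1, 2 and 3 held 18, 7 and 37 reads, or 7.02, 2.26 and 12.2 CPM. The lowest overexpression library was thus above the highest control library, while the overexpression libraries differed among themselves by 5.38-fold, a wider range than in all but 0.553% of the listed genes. Over pooled reads, the rate in overexpression cells was 12.5-fold that in control cells (exact 95% interval 5.45 to 35.5), an interval that covers counting error only. The log2 fold change was 2.18 (standard error 0.44), 3.10 with limma voom on the recovered reads and 1.04 at a pseudocount of 5, since the pseudocount weighs heavily at this level.

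The next group of members acts inside the pathway, as a subunit, a ubiquitin ligase or an inhibitor. NFKB2 (ENSG00000077150, chromosome 10 from 102394110 to 102402524), the p100 and p52 precursor of the noncanonical arm, had 14.2, 16.7 and 27.5 CPM in controls and 38.6, 31.0 and 32.8 CPM in overexpressing libraries. The groups did not overlap, though control replicate 3 lay close to the overexpression libraries. The mean was 19.5 ± 7.07 CPM in control and 34.1 ± 3.96 CPM in IGFBP2 overexpression cells (SD, n = 3 each). This gives a log2 fold change of 0.83, with a standard error of 0.25.

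BIRC3 (ENSG00000023445, chromosome 11 from 102317484 to 102339403) encodes cIAP2, a ubiquitin ligase that sits at TNF receptors, restrains NIK and blocks cell death. BIRC3 had 3.55, 10.01 and 5.66 CPM in controls. It had 24.6, 21.9 and 24.3 CPM in overexpressing libraries. The overexpression libraries were nearly level, within 1.12-fold of each other, and all lay above the controls, which spanned 2.82-fold. The mean was 6.41 ± 3.30 CPM in control and 23.6 ± 1.44 CPM in IGFBP2 overexpression cells (SD, n = 3 each). On the log2 scale the difference was 1.82 (standard error 0.30), and 1.36 at a pseudocount of 5.

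The feedback inhibitors behaved differently from these genes in that their groups overlapped. NFKBIA (ENSG00000100906, chromosome 14 from 35401079 to 35404749) had 92.1, 174 and 111 CPM in controls and 127, 121 and 208 CPM in overexpressing libraries. For NFKBIA the log2 fold change was 0.28 (standard error 0.30) and ranged from 0.032 to 0.54 with each library left out in turn. TNFAIP3 (ENSG00000118503, chromosome 6 from 137867214 to 137883314), the gene of the ubiquitin-editing enzyme A20, had 3.996, 7.51 and 7.28 CPM in controls and 6.63, 10.3 and 7.88 CPM in overexpressing libraries. For TNFAIP3 it was 0.38 (standard error 0.26), ranged from 0.13 without control replicate 1 to 0.51 with each library left out, and was 0.24 at a pseudocount of 5. An uncharacterised gene on the opposite strand overlaps BIRC3, and WAKMAR2 overlaps TNFAIP3 in the same way. Neither is listed, and since the strand setting of the counting is not given in the sources used here, reads from overlapping genes could be counted together. Both promoters hold the NF-kB consensus in the stretches printed above, as do those of LTB, BIRC3 and NFKB2, whose groups did not overlap.

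The acute phase members differed in that the groups of SAA1 did not overlap and those of LCN2 did. SAA1 (ENSG00000173432, chromosome 11 from 18266260 to 18269977) encodes serum amyloid A, a lipoprotein-bound protein that the liver releases in large amounts in inflammation and that epithelia can make. SAA1 had 2.44, 2.78 and 0.809 CPM in controls, from 11, 10 and 2 reads. It had 19.1, 17.4 and 40.4 CPM in overexpressing libraries, from 49, 54 and 123 reads. The groups were far apart, and overexpression replicate 3 was the highest library. Over pooled reads the rate in overexpression cells was 11.9-fold that in control cells (exact 95% interval 7.76 to 19.2, counting error only). The log2 fold change was 3.12 (standard error 0.37), and it was 3.67 at a pseudocount of 0.1 and 2.06 at a pseudocount of 5. SAA2 is a near copy of SAA1. Of the 100-base windows of the 5 coding SAA1 transcripts in GENCODE 44, between 10.8% and 37.2% also occur letter for letter in SAA2, so how the authors' counting placed reads common to both is uncertain for this gene.

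LCN2 (ENSG00000148346, chromosome 9 from 128149071 to 128153453) encodes lipocalin 2, which binds bacterial iron carriers and is a well known NF-kB target in epithelia. LCN2 had 25.1, 112 and 18.2 CPM in controls. It had 26.1, 21.6 and 22.7 CPM in overexpressing libraries. A single control library was high, while the other controls and all overexpression libraries lay close together. The log2 fold change was -0.65 (standard error 0.56), and without control replicate 2 it was 0.12.

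**Figure D2:**
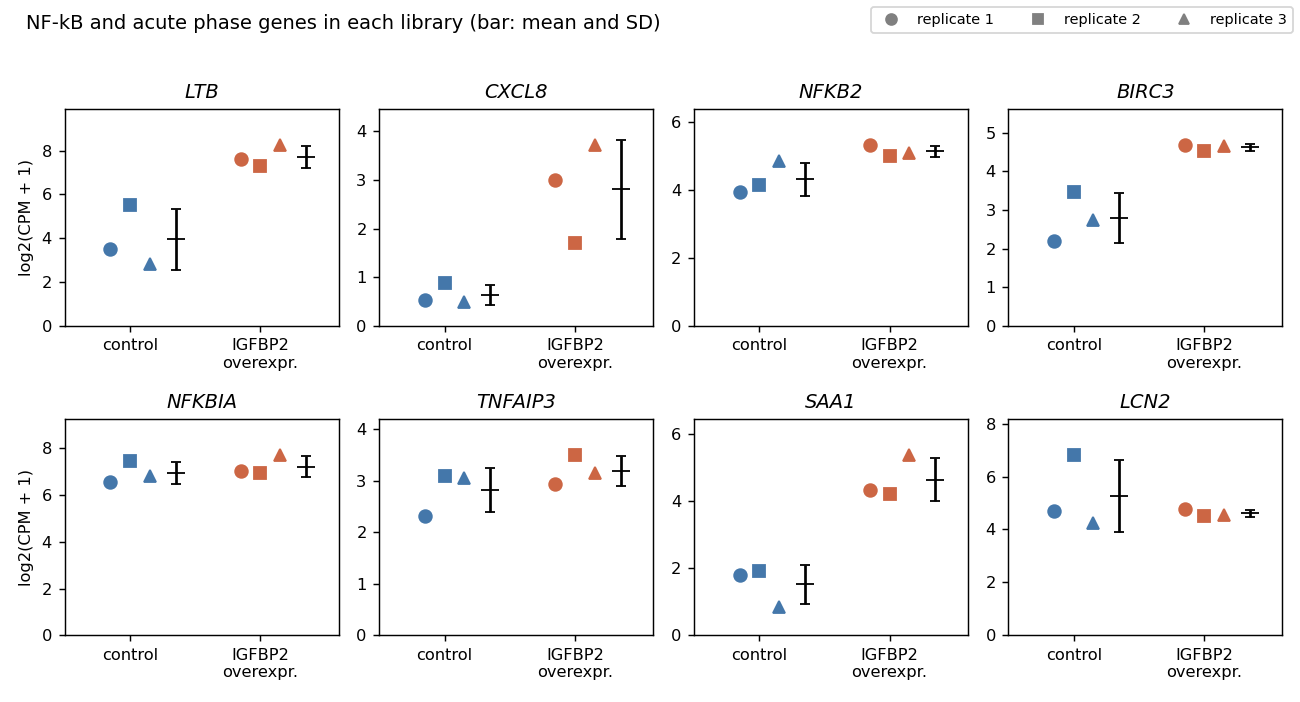
Level of the 8 listed members in each library, as log2(CPM + 1) on axes that start at 0, with symbols for replicates and the mean and SD (n = 3) at the right of each group. LTB, CXCL8, NFKB2, BIRC3 and SAA1 do not overlap between groups, while NFKBIA, TNFAIP3 and LCN2 do, and LCN2 has 1 high control at 112 CPM.

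Across the listed members, 5 of 8 had all overexpression libraries above all control libraries and 0 had them all below, where 9.43% of all 10487 genes were wholly above and 8.61% wholly below. In limma, fitted to all genes with Benjamini-Hochberg adjustment, 3 of the 8 (LTB, SAA1 and BIRC3) were past an adjusted p of 0.05 and higher, where 0.429% of all genes were. The members were chosen with this contrast known, so these counts describe the choice. SAA1 and CXCL8 averaged 2.01 and 0.561 CPM in control cells and passed that filter of the table only through the overexpression cells. They had to differ to be listed, as did 353 genes in all (3.37%).

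The spread within each group set the members apart from one another. In control cells, the highest library exceeded the lowest by 7.38-fold for LTB and 6.15-fold for LCN2. Only 0.639% of all listed genes spanned more than LTB in the controls and 0.954% more than LCN2, and the median gene spanned 1.45-fold. Control replicate 2 was the highest control for 7 of the 8 members, NFKB2 being the exception, where it was the highest control for 35.6% of all genes. In overexpression cells the order was another one. Replicate 2 was the lowest overexpression library for 7 of the 8 members, TNFAIP3 being the exception, where it was the lowest for 32.3% of all genes. Replicate 2 was also the library with the most IGFBP2, at 1176 CPM against 566 and 498 CPM. Some of these gaps were small, such as 21.6 against 22.7 CPM for LCN2. No test was made of this order, and 3 libraries allow no correlation.

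**Figure D3:**
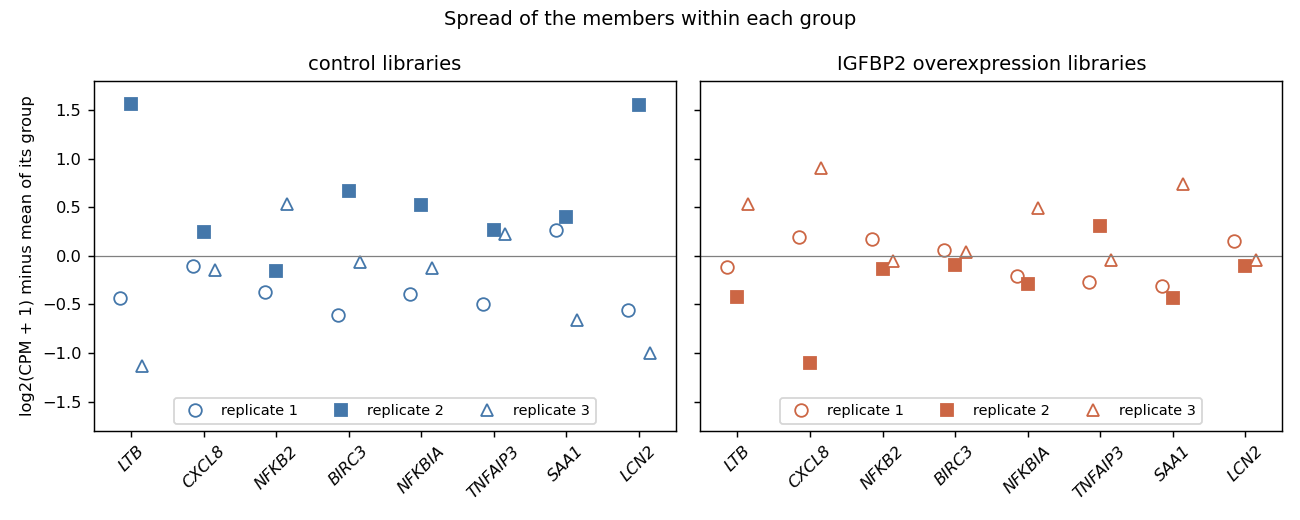
Deviation of each library from the mean of its own group, in log2(CPM + 1), for the 8 listed members in control (left) and IGFBP2 overexpression (right) libraries. Control replicate 2 (filled squares, left) is the highest point for all but NFKB2, and overexpression replicate 2 (filled squares, right) is the lowest for all but TNFAIP3.

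The wider pathway was examined with lists chosen by role, each without the members above. Earlier results of these data were known when the lists were made, which limits what their counts and p-values can show. Of 45 NF-kB signalling components, 40 were listed and 0 passed an adjusted p of 0.05 in limma, while 6 had an unadjusted p under 0.05, all higher in overexpression cells, and 0 passed with limma voom. Over all genes, 0.629% passed and 13% had an unadjusted p under 0.05 (6.88% higher and 6.12% lower). With limma voom, 141 of all 10487 genes passed. The median log2 fold change of the components was 0.17, where that of all genes was 9.8e-05. Those with the smallest p were TRAF5, TAB2 and TNIP1. TRAF5, an adaptor at lymphotoxin beta and related receptors, had 4.22, 7.51 and 5.66 CPM in controls and 8.97, 12.3 and 10.5 CPM in overexpressing libraries (log2 fold change 0.79, standard error 0.23, limma adjusted p = 0.204). TAB2, which links the kinase TAK1 to ubiquitin chains, had a log2 fold change of 0.60 (standard error 0.20, limma adjusted p = 0.257). TNIP1, a partner of A20, had a log2 fold change of 0.63 (standard error 0.21, limma adjusted p = 0.264). In all 3 genes the groups did not overlap, which held for 9 of the 40 components with overexpression cells above and 0 with them below, where it held for 9.43% and 8.61% of all genes. MAP3K14 and TIRAP, 2 of the 40, were listed only through the overexpression cells.

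The subunits and the noncanonical arm are named here for their role. RELA, the p65 gene, had 136, 176 and 154 CPM in controls and 143, 153 and 153 CPM in overexpressing libraries, within the control range. NFKB1 and REL had log2 fold changes of -0.047 and -0.27 (standard errors 0.20 and 0.21), with overlapping groups. RELB, the partner of p52, had 18.2, 41.4 and 40.0 CPM in controls and 51.5, 68.8 and 55.2 CPM in overexpressing libraries. RELB did not overlap between groups, but control replicate 1 was far below the other controls, and its log2 fold change of 0.87 (standard error 0.31) did not pass (limma adjusted p = 0.29). BIRC2, the gene of cIAP1 and the neighbour of BIRC3 on chromosome 11, had 63.9, 120 and 76.8 CPM in controls and 132, 133 and 138 CPM in overexpressing libraries (log2 fold change 0.67, standard error 0.25, limma adjusted p = 0.294). MAP3K14, TRAF2, TRAF3 and CHUK, the other core genes of that arm, had log2 fold changes of 0.48, 0.38, 0.30 and -0.40, and none passed.

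Of 33 TNF, IL1 and Toll-like ligands and receptors, 12 were listed and 0 passed in limma. An unadjusted limma p under 0.05 was found for 1 of the 12, TNFRSF21, against 13% of all genes. With limma voom 0 of the 12 passed, against 141 of all 10487 genes. The median log2 fold change was 0.26. The lowest value was that of TNFSF10, the death ligand TRAIL, which had 0.444, 22.8 and 14.6 CPM in controls and 2.73, 5.16 and 5.58 CPM in overexpressing libraries (log2 fold change -0.61, standard error 0.88, limma adjusted p = 0.83). Control replicate 1 stood far below the other controls for TNFSF10, the gene was listed only through the controls, and it was named after its values were seen. IL1R2 was listed only through the overexpression cells. TNFRSF21, death receptor 6, had 99.01, 84.0 and 85.3 CPM in controls and 172, 157 and 102 CPM in overexpressing libraries (limma adjusted p = 0.292). LTBR, the receptor for the LTB product, had 44.6, 55.6 and 52.6 CPM in controls and 72.9, 90.7 and 53.5 CPM in overexpressing libraries. The LTBR groups overlapped (log2 fold change 0.47, standard error 0.23, limma adjusted p = 0.427), and the value was 0.30 without IGFBP2 overexpression replicate 2. IL1R2, a decoy receptor for IL1, had a log2 fold change of 0.96 (standard error 0.53, limma adjusted p = 0.488), which was 0.29 without control replicate 3, where it had 0.404 CPM. TNF, LTA, IL1A and IL1B were not listed.

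Of 41 further NF-kB target genes, 23 were listed and 0 passed in limma. With limma voom 2 of the 23 passed, ICAM1 and PTGES, against 141 of all 10487 genes. An unadjusted limma p under 0.05 was found for 11 of the 23, of which 8 were higher and 3 lower. Over all genes it was found for 13% (6.88% higher and 6.12% lower). Of the 8 that were higher, TNFAIP8, CXCL3 and CXCL10 were listed only through the overexpression cells and had to be higher to be listed, so the split of 8 against 3 is a description only. The median log2 fold change was 0.33. The smallest p values belonged to TNFAIP8, PTGES and GADD45B, which did not share a direction. TNFAIP8, a regulator of cell death, had 2.44, 7.23 and 3.64 CPM in controls and 19.9, 11.3 and 9.53 CPM in overexpressing libraries (log2 fold change 1.45, standard error 0.36, limma adjusted p = 0.142), a test limited by that filter, and the log2 fold change was 0.97 at a pseudocount of 5. PTGES, the inducible prostaglandin E synthase, had 155, 164 and 273 CPM in controls and 82.3, 87.8 and 114 CPM in overexpressing libraries, so that all overexpression libraries were below all controls (log2 fold change -1.02, standard error 0.26, limma adjusted p = 0.15). GADD45B, a stress sensor, was also below in every overexpression library (log2 fold change -0.98, standard error 0.26, limma adjusted p = 0.175).

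ICAM1, the adhesion molecule that binds leukocyte integrins, had 5.99, 33.9 and 12.5 CPM in controls and 45.2, 46.5 and 47.6 CPM in overexpressing libraries. Its pattern is that of BIRC3, with level overexpression libraries above spread controls, and its log2 fold change of 1.67 (standard error 0.48) had a limma adjusted p of 0.2. CXCL3, a chemokine of the CXCL8 family, had 0.222, 1.67 and 0.809 CPM in controls and 1.95, 3.23 and 10.5 CPM in overexpressing libraries. CXCL3 was, like CXCL8, at a few reads in the controls and highest in overexpression replicate 3 (log2 fold change 1.53, standard error 0.48, limma adjusted p = 0.233). ICAM1 and CXCL3 were named after their values were seen.

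Of 48 further acute phase, complement and antimicrobial genes, 14 were listed. In limma 1 of them rose and 0 fell, against 0.429% higher and 0.2% lower over all genes. An unadjusted limma p under 0.05 was found for 4 of the 14, all higher, against 13% of all genes (6.88% higher and 6.12% lower). The median log2 fold change was 0.21. The gene that rose was PI3, elafin, an epithelial inhibitor of neutrophil elastase with antimicrobial activity. PI3 had 14.4, 18.1 and 31.1 CPM in controls and 69.4, 69.1 and 65.04 CPM in overexpressing libraries. This was a log2 fold change of 1.70 (standard error 0.27, limma adjusted p = 0.0416). The call was lost in 7 of 14 alternatives, with 5 of the 6 fits that each left out a library among them (adjusted p of 0.0557 without control replicate 1, 0.0853 without control replicate 2, and 0.14, 0.153 and 0.0882 without IGFBP2 overexpression replicates 1, 2 and 3, from limma), although the log2 fold change stayed between 1.47 and 2.00.

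The liver-type acute phase regulators STAT3, CEBPB and CEBPD, which act with NF-kB on SAA genes, had log2 fold changes of -0.074, 0.14 and 0.12 with overlapping groups. CEBPA had -0.60, also with overlap. SOCS3 and CD59 were higher in every overexpression library than in any control (log2 fold changes 1.12 and 0.77, limma adjusted p = 0.246 and 0.12). Groups lay wholly above for 3 of the 14 genes of this list and wholly below for 0, against 9.43% and 8.61% of all genes. The complement genes C3 and CFB and the defensin DEFB1 were, like LCN2 and LTB, highest among controls in replicate 2. C3 had 1.11, 8.34 and 2.02 CPM in controls and 5.46, 7.42 and 27.3 CPM in overexpressing libraries. DEFB1 had 20.4, 145 and 46.9 CPM in controls and 18.3, 21.3 and 24.965 CPM in overexpressing libraries, close to the shape of LCN2. Control replicate 2 was the highest control for 10 of these 14 genes, where it was the highest for 35.6% of all genes. It was the highest for 21 of the 40 signalling components and 6 of the 12 ligands and receptors. Among the 23 NF-kB targets it was the highest for 10, and control replicate 3 for 12. Control replicate 1 was the lowest control for 14 of those 23 targets, 9 of these 14 genes and 20 of the 40 components. It was the lowest for 34.7% of all genes. C3 and CFB were listed only through the overexpression cells. These genes were named after their values were seen, and none of them passed the threshold.

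**Figure D4:**
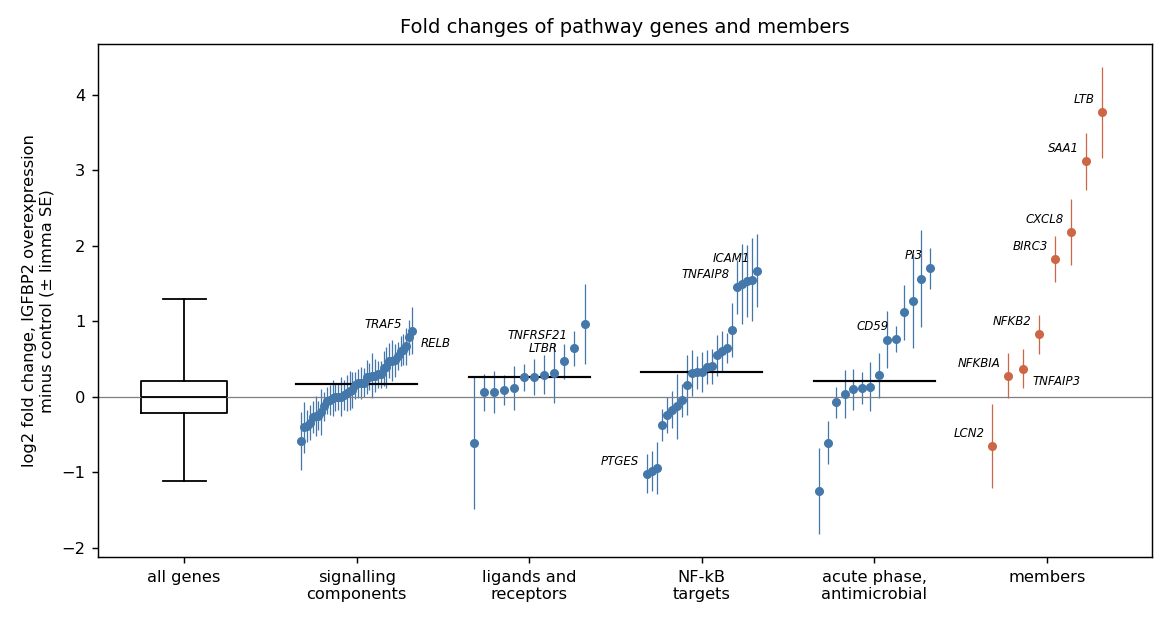
Log2 fold change (IGFBP2 overexpression minus control, log2(CPM + 1) scale) with limma standard errors for the genes of each pathway list (blue, black line at the median) and the 8 listed members (orange), beside a box of all 10487 genes with whiskers at the 1st and 99th percentiles. The medians of the pathway lists lie at 0.17 to 0.33, while LTB at 3.76 and SAA1 at 3.12 are the highest members and LCN2 at -0.65 the lowest.

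The genes most like the members were sought by correlating each gene's standardised log2 values with the mean standardised profile of the 8 members over the 6 libraries. The closest were SIMC1, ZNF160, MAP6D1, GINM1 and BCAS4, with Pearson coefficients of 0.986 to 0.992 over 6 libraries, which fall into the 2 groups compared and so are a description only. SIMC1 had 6.88, 11.7 and 8.90 CPM in controls and 13.6, 13.9 and 15.4 CPM in overexpressing libraries. It thus shared both the higher control replicate 2 and the highest overexpression replicate 3. The log2 fold changes of the 5 genes were between 0.17 and 0.84, and none passed the threshold. The value of 0.84 was that of MAP6D1, which averaged 4.78 CPM in control and 9.27 CPM in IGFBP2 overexpression cells. MAP6D1 was thus listed only through the overexpression cells and had to be higher there.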

How the data were processed

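Total RNA of MDAMB468 cells, from 3 control and 3 IGFBP2 overexpression libraries, was sequenced from the 3′ end. The authors used bbduk for trimming, STAR with hg38 for alignment, htseq-count (HTSeq 0.9.1 per the submitters' processing notes) for counting and edgeR for normalization. They kept genes averaging over 5 CPM in either condition, and the deposited values are log2(CPM + 1). Each value minus its pseudocount of 1 was a whole multiple of 1 step (tolerance 0.05) for 100% of values. Of 10487 identifiers, 10462 matched GENCODE 44 symbols.

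The members and lists were chosen with earlier results of these data known. The design assumed log2 values, and limma 3.58.1 (R 4.3.3), without a trend, was fitted across the table on condition alone, with Benjamini-Hochberg adjustment. It was tested on simulated reads. Exact intervals came from scipy 1.17.1 in Python 3.11.15. Genes named were the members, IGFBP2, RELA, the called genes of each list or otherwise the 3 with the smallest p, and the 5 most like the members. Others are named for their role or after their values were seen. Alternatives were a trend, voom, 2 scalings, 2 pseudocounts, a filter, a block for replicate number, and leaving out each library.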

Additional observations from a re-analysis of the deposited data

How the results depend on the processing

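Depth limits SAA1 and CXCL8, which had 1 to 11 reads in each control library. The number of differing genes, 66, was 160 with a mean-variance trend, 141 with limma voom, 37 at a pseudocount of 0.1, 129 at a pseudocount of 5 and 12 to 79 with each library left out in turn (12 without IGFBP2 overexpression replicate 1, 13 without replicate 2, 17 without control replicate 3). The number of members past the threshold, 3, was 1 at a pseudocount of 0.1, 1 with the replicate block and 1 to 3 with each library left out (1 without control replicate 3 or IGFBP2 overexpression replicate 1 or 3, and 2 without control replicate 1 or IGFBP2 overexpression replicate 2). With the replicate block, 55 genes differed, of which 42 were among the 66, and PI3 had a limma adjusted p of 0.0509. Deviations of libraries with the same replicate number correlated at 0.172, -0.064 and 0.0842. Control replicates 1 and 3 correlated best with the overexpression library of their own number, and control replicate 2 did not. Whether the libraries are paired cannot be told from these small values. No signalling component passed under any alternative. Ligands and receptors held 0 or 1 call with each library left out (TNFSF10, lower, without control replicate 1). NF-kB targets held 2 with the trend, 2 with limma voom and 0 to 1 with each library left out (ICAM1 without control replicate 2). Acute phase, complement and antimicrobial genes held 2 with the trend, 2 with limma voom, 0 at a pseudocount of 0.1, 0 with the replicate block and 0 to 1 with each library left out. The log2 fold change of RELA ranged from -0.14 to 0.045 with each library left out, reversed without control replicate 2. The cause was not tested. Scalings moved the median of all genes by at most 0.023. No unfiltered alternative was possible, since the deposited table is itself filtered. CXCL8, TNFAIP3, IL1R2 and MAP6D1 have no value at an average CPM over 10.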
